A study of Mus musculus with 20 samples.

Results

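The cytosolic ribosomal protein genes were taken by name: every protein-coding gene of the count table whose symbol follows the Rpl or Rps pattern, together with Rpsa, Rplp0, Rplp1 and Rplp2 and without the ribosomal S6 kinases. The rule found 83 genes among 55487, of which 51 encode proteins of the large (60S) subunit and 32 proteins of the small (40S) subunit. It used names and gene types alone, and no measured value. 81 of the 83 members had enough reads to be tested among 12799 genes. The other 2, Rpl10l and Rpl39l, are described with the paralog forms.

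The study sequenced poly(A) RNA of BV-2 cells, an immortalised wild-type mouse microglial line. Young cells were at low passage, and aged cells had been kept in culture for a long time before they were frozen in aliquots. Cells of each age were left untreated or received lipopolysaccharide (LPS), a bacterial cell wall component that activates microglia, at 100 ng/ml for 6 hours. This gave 4 groups of 5 libraries (young untreated, aged untreated, young LPS and aged LPS), and each of 5 batches named in the labels held 1 library of every group. All libraries come from a single cell line. Aged cells were thawed from frozen aliquots together with controls, and whether the 5 batches come from separate long-term cultivations is not given in the sources used here, so a p-value measures the spread between these libraries. Library totals ran from 11371508 to 16829292 counts.

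The cytosolic ribosome reads messenger RNA and joins amino acids, and most of its proteins are needed in about equal number. Their messengers are among the most abundant in growing cells and usually begin with a cytosine followed by a run of pyrimidines, the 5' terminal oligopyrimidine (TOP) start, through which mTORC1 and the RNA-binding protein LARP1 adjust their translation. Many are stable, and they are also the source of large numbers of processed pseudogenes, copies of the spliced messenger inserted elsewhere in the genome.

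The cells carried most of the general microglia and macrophage markers, at levels that differed widely. Cd68, a lysosomal protein of macrophages, was the most abundant of 11 microglia and macrophage markers at a mean of 1007 CPM (counts scaled to a common library size), and Csf1r, the receptor that keeps these cells alive, reached at least 548 CPM in every library. Aif1, a general marker, averaged 9.37 CPM. P2ry12 and Cx3cr1, receptors of resting microglia, reached at most 1.99 and 1.84 CPM, and Tmem119, another marker of resting microglia, averaged 18.8 and 19.3 CPM in young and aged untreated and 2.10 and 3.34 CPM in young and aged LPS libraries. The summed unscaled level of the 11 genes had a median of 3405 CPM in young untreated, 2659 in aged untreated, 3335 in young LPS and 2727 in aged LPS libraries. Astrocyte, neuron, endothelial and fibroblast markers summed to at most 1.41 CPM in any library, and those of oligodendrocytes to at most 1.89 CPM. LPS acted as labelled: all 8 response genes checked, Tnf and Il1b among them, rose in young and in aged cells.

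The start sites of 6 members are shown because they carry the contrasts described below: the kinase target Rps6, the pairs Rps27 and Rps27l and Rpl22 and Rpl22l1, and Rpl24, the tested member that LPS raised most in young cells. Each line holds 30 bases of GRCm38.p6 around the RefSeq start, read 5' to 3' on the gene's own strand, and the capitals mark the annotated start base with any unbroken pyrimidine run that begins there with a C. Where a gene has several entries, the one with the longest such run is shown.
Rps6: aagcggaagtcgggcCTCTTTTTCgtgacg
Rps27: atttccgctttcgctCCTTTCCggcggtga
Rps27l: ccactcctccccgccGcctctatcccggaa
Rpl22: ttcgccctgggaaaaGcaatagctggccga
Rpl22l1: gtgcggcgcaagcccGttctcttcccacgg
Rpl24: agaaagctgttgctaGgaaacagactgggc

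These windows lie at chr4:86857353-86857382 on the minus strand (Rps6), chr3:90213634-90213663 on the minus strand (Rps27), chr9:66946071-66946100 on the plus strand (Rps27l), chr4:152325711-152325740 on the plus strand (Rpl22), chr3:28805493-28805522 on the plus strand (Rpl22l1) and chr16:55966260-55966289 on the plus strand (Rpl24). Rps6 and Rps27 had a TOP run of 9 and 7 bases at the annotated base, and the other 4 had none there. 63 members had an entry in the RefSeq table, with 75 start sites in all. A C followed by at least 4 pyrimidines stood at 17.3% of those 75 starts, against 2.51% of 32851 starts of all genes and 2.38% of 11528 starts of genes tested. The ETS factor letters CCGGAAG, searched on both strands between 250 bases before and 50 after the start, were in 36.0% of the members' windows, against 8.86% of all and 18.8% of the tested genes' windows. The TATA letters TATAAA, on both strands, were in 9.33% of the members' windows, 13.6% of all and 7.07% of the tested genes' windows. The SP1 letters GGGCGG were in 60% of the members', 35.7% of all and 62.2% of the tested genes' windows, and the YY1 letters AAGATGGC in 10.7, 2.75 and 4.81%, on both strands. An annotated start can lie a few bases from the one used in these cells, so a missing run says only that the letters are not at that base.

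The members together held about 3% of all counts in every group. Their share was 3.13, 3.09, 2.90, 2.82 and 3.30% in the young untreated libraries of batches 1 to 5. It was 3.18, 2.90, 3.08, 2.82 and 3.35% in the aged untreated libraries, in the same order. With LPS it was 2.96, 3.09, 2.87, 2.86 and 3.20% in young and 3.07, 2.97, 3.05, 2.95 and 3.35% in aged cells. The 4 groups overlapped fully, with means of 3.05 ± 0.189, 3.07 ± 0.213, 3.00 ± 0.148 and 3.08 ± 0.161% (SD, n = 5 each). The Wilson 95% interval of a single share reached at most 0.00986 percentage points to either side, so counting error is far smaller than the spread between libraries.

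**Figure D1:**
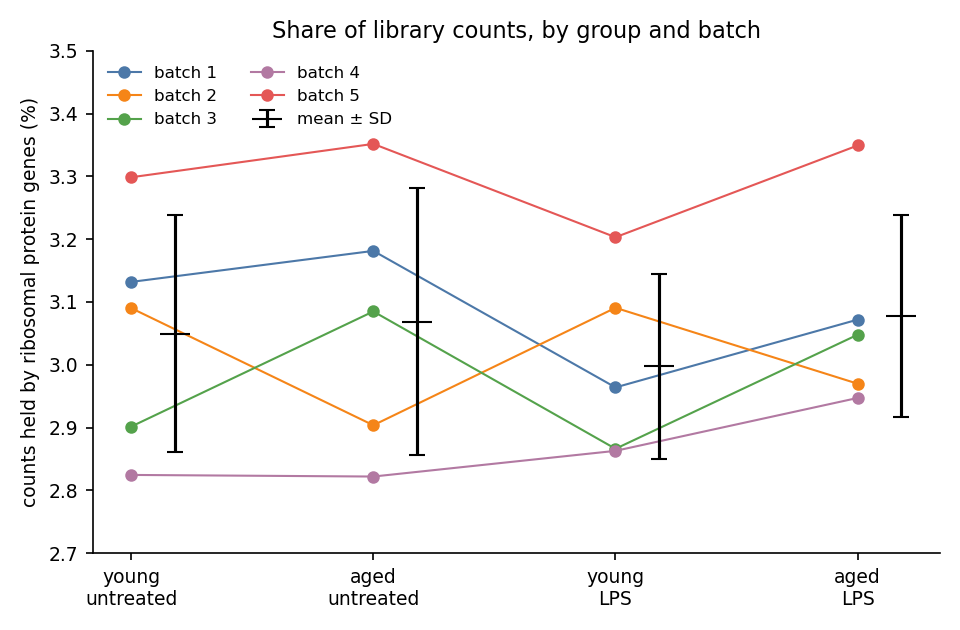
The percentage of each library's counts held by the 83 ribosomal protein genes (vertical axis, starting at 2.7%) in the 4 groups; lines join the 4 libraries of a batch, and black bars give the group mean ± SD. Batch 5 is highest in every group, and the group means differ less than the batches do.

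The batch separated the shares far more than the group did. Batch means ran from 2.86% in batch 4 to 3.30% in batch 5 and held 79.1% of the sum of squares over the 20 libraries, whereas group means ran from 3.00 to 3.08% and held 3.60%. Batch 5 had the highest share in all 4 groups. Within batches, the LPS library minus its untreated partner gave -0.168, 0.00047, -0.0353, 0.0383 and -0.0955 percentage points in young cells and -0.109, 0.0661, -0.0371, 0.125 and -0.00253 in aged cells, so neither age showed a shared direction. Aged minus young libraries gave 0.108, -0.121, 0.182, 0.084 and 0.146 percentage points under LPS, positive in all batches but batch 2. Untreated they gave 0.0494, -0.187, 0.183, -0.00255 and 0.0531. What differed between the batches beyond their number is not given in the sources used here, and its part in the shares was not tested.

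Levels between members are compared per length, as CPM divided by the kilobases of the principal transcript (CPM per kb), over all 20 libraries and after scaling by the trimmed mean of M values (TMM). The median of the 81 members was 446 CPM per kb. The highest was Rplp1, an acidic protein of the stalk that recruits elongation factors, at 1345 CPM per kb. It was followed by Rpl8 at 1105, Rpl7a at 986, Rpl4 at 964 and Rplp0, the stalk's base, at 931 CPM per kb. The lowest were the paralog forms Rpl3l at 0.610 and Rpl22l1 at 98.5 CPM per kb, with Rps20 at 66.5, Rpl5 at 110 and Rps27l at 121. The values of Rps20 and Rpl5 rest on transcript models of 3706 and 2045 bases, the longest among the members, and a shorter messenger would raise them.

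The protein-coding members shared much of their sequence with other genes, which limits how well their reads could be placed. Of all 50-base stretches in a member's transcript, a median of 60% also occurred in the transcripts of at least 1 other gene, mostly pseudogenes. 52 of the 81 tested members shared over 50% of their stretches. Rps27 shared the most with 98.6%, Rps6 shared 84.6%, and Rpl3l shared none. 298 rows of the table are named as pseudogenes of a member, and they held between 0.0169 and 0.0212% of counts in any library, or 0.603% of the members' own counts. Over the 81 members the rank correlation of level per length with shared sequence was 0.0944, a description across genes of the same libraries. The median level was 309 CPM per kb in the 14 members with under 33% shared stretches, 432 in the 33 between 33 and 66%, and 488 in the 34 above. The 14 include the paralog forms Rpl3l, Rpl7l1 and Rps27l, and long transcript models such as Rps20 (3706 bases) and Rps3 (1908 bases). The part of length and of paralogs in these medians was not tested. Counts of members with a large shared part are uncertain, since the sources used here do not say how reads with several matches were counted.

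**Figure D2:**
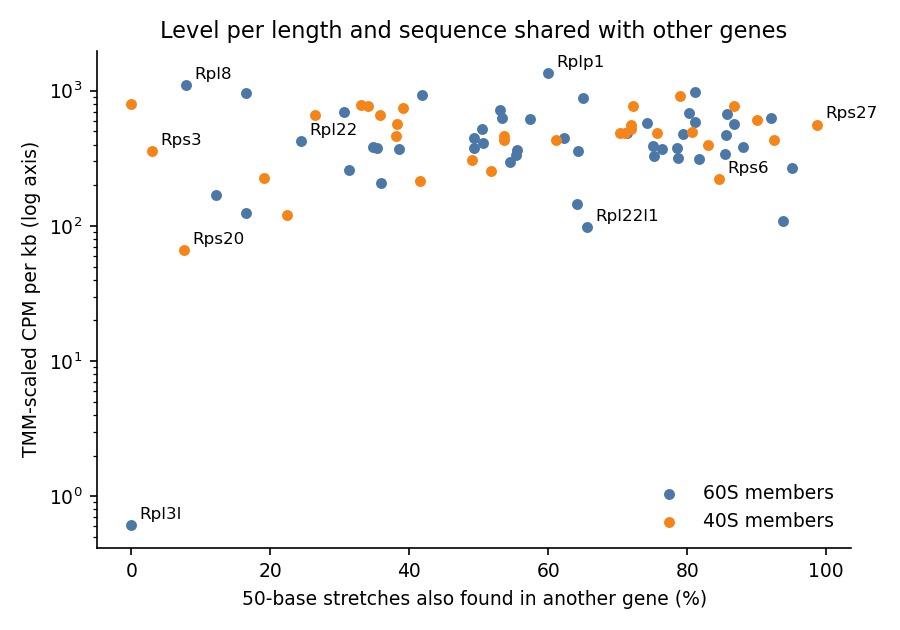
Mean level of each tested member (TMM-scaled CPM per kb, log axis) against the percentage of its 50-base stretches that occur in another gene's transcript; points are genes, coloured by subunit. Levels differ widely at any degree of shared sequence, and Rpl3l stands far below at 0.610 CPM per kb.

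LPS raised 56 of 81 members in young cells and lowered none. Each gene was tested by quasi-likelihood in edgeR with TMM scaling and Benjamini-Hochberg adjustment at 0.05 over all genes. The same rule called 31.2% of all genes higher and 33.5% lower. The members moved together and little: all 81 had a positive log2 fold change, the median was 0.19, and the SD over members was 0.06, near the median SE of 0.07. The median of all genes tested was -0.01. The 60S and 40S members did not stand apart, with 35 of 49 raised at a median of 0.19 and 21 of 32 raised at a median of 0.20. With the batch as a block, 75 of 81 passed (32.8% of all genes higher). None of the 81 reached a log2 fold change of 0.5.

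In aged cells LPS raised 41 of 81 members and lowered none, against 27.5% of all genes higher and 26.9% lower. The median was 0.16 with an SD of 0.05 over members, and 80 of 81 values were positive. 26 of 49 members of the 60S and 15 of 32 of the 40S subunit passed. With the batch as a block the count was 63 (29.7% of all genes higher). Without batches 2 and 3 it was 20 and 18 of 82, Rpl39l included, or 24.4 and 22.0% of members against 24.5 and 24.9% of all genes, so in those fits the members passed no more often than genes at large. Without batches 1, 4 and 5 it was 33, 26 and 39, or 40.2, 32.1 and 48.1% of members against 25.3, 25.7 and 24.6% of all genes. Why the batches differ in this was not tested. 39 members passed at both ages, 17 in young cells alone and 2 in aged cells alone, which is not a test of a difference between the ages. Of all 12799 genes tested, 3218 were higher at both ages. Over the 81 members the 2 responses, which share no library, had a rank correlation of 0.713, given as a description.

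These rises are relative to the other genes and depend on the scaling. TMM, which assumes that most genes keep their level, gave the untreated libraries factors of 1.04 to 1.08, young LPS libraries 0.891 to 0.931 and aged LPS libraries 0.952 to 0.973. With library sizes alone, the median of all genes moved to -0.23 in young and -0.16 in aged cells, and the members' medians to -0.03 and 0.00. In the fit with library sizes 1 member was higher and 1 lower at each age, against 18.8% of all genes higher and 50.0% lower in young cells and 17.0% higher and 42.8% lower in aged cells. Where a tested member is described as rising without overlap of the groups, this holds on the TMM scale alone, since on unscaled CPM 0 of 81 members had all LPS values above all untreated ones at either age. The share of all genes without overlap is not given here, so these are descriptions of single members. The members lay above the median gene by 0.21 under TMM and by 0.20 with library sizes in young cells, and by 0.16 under each scaling in aged cells. A change of scaling moves all genes by nearly the same amount, so this distance could hardly differ between scalings and does not test them. Total RNA per cell was not measured, so these data give the members as a steady share of counts and as higher than the median gene, and not as an amount per cell; fewer cells and less RNA per cell cannot be told apart either.

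**Figure D3:**
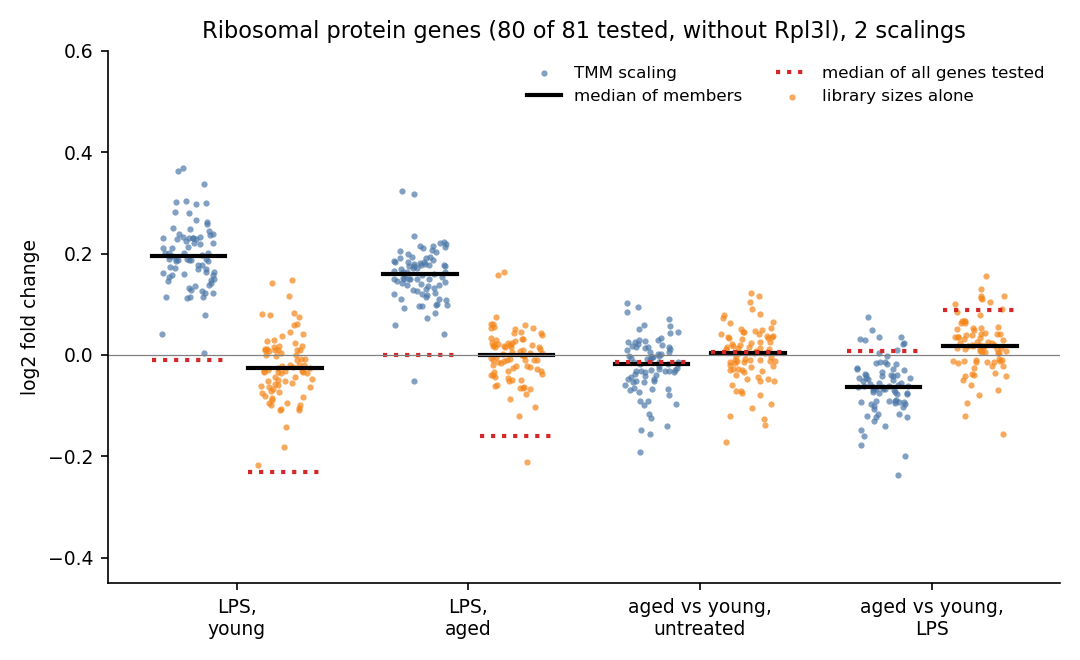
Log2 fold changes of 80 tested members (Rpl3l, far from the rest in the age comparisons, is left out) in 4 comparisons, fitted with TMM (blue) and with library sizes alone (orange); black lines are the medians of the 81 members and dotted red lines the medians of all 12799 genes. In the LPS comparisons the members lie about 0.2 above the red line in young cells and 0.16 in aged cells under either scaling. A change of scaling leaves this distance nearly fixed, since it moves all genes nearly alike. The members' distance from 0 is lost with library sizes alone.

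On the TMM scale the rise was present in every batch. The median log2 difference of the members between the LPS library and its partner was 0.15, 0.25, 0.21, 0.22 and 0.17 in batches 1 to 5 of young cells and 0.11, 0.17, 0.15, 0.22 and 0.17 in aged cells, on TMM-scaled values. On these values 74 of the 81 members (91.4%) were higher with LPS in all 5 batches of young cells and 72 (88.9%) in all 5 of aged cells, against 33.4 and 31.9% of all genes tested. On unscaled CPM the counts were 6 (7.41%) and 8 (9.88%), against 20.1 and 19.2% of all genes. Members are short, with a median transcript of 729 bases against 2783 for the other genes tested. The 804 other tested genes with a transcript under 1000 bases had a median log2 fold change of 0.01 in young and 0.00 in aged cells, and 27.0 and 22.8% of them passed as higher. By shared sequence, the 14 members with under 33% shared stretches had medians of 0.15 and 0.13, and the 34 with at least 66% had 0.21 and 0.16. The 14 include the paralog forms Rpl3l, Rpl7l1 and Rps27l.

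Rpl24, a 60S protein at the interface between subunits, rose most with LPS in young cells among the 81 members that passed the filter on low counts. The gene lies at chr16:55966275-55971435 on the plus strand (GRCm38, GENCODE M21). Its TMM-scaled values were 181, 198, 193, 182 and 201 CPM in the young untreated libraries of batches 1 to 5 and 239, 276, 244, 217 and 257 CPM with LPS. These groups did not overlap, and the log2 fold change was 0.37 ± 0.06 (SE, n = 5 a group; edgeR adjusted p = 2.21e-05). In aged cells it went from 190.1 ± 14.8 to 221 ± 14.5 CPM (SD), and the groups overlapped (log2 fold change 0.22, edgeR adjusted p = 0.0061). It was also the member called higher in young cells with library sizes alone, at 0.15 (edgeR adjusted p = 0.0369).

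Rps13, a 40S protein, rose from 208 ± 17.1 to 263 ± 28.4 CPM in young cells (log2 fold change 0.34, edgeR adjusted p = 0.000649) without overlap of the groups. Rpl5, which carries 5S ribosomal RNA into the 60S subunit and, when free, binds the p53 inhibitor MDM2, rose from 205 ± 25.6 to 253 ± 26.9 CPM in young cells (0.30, edgeR adjusted p = 0.00997). In aged cells Rpl5 went from 204 ± 25.9 to 233 ± 30.5 CPM and passed with the batch as a block (edgeR adjusted p = 0.107, and 0.00556 with the block). Batch 5 had the highest Rpl5 value in all 4 groups.

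Rps20, a protein of the 40S head (chr4:3831334-3835665, minus strand), rose most in aged cells among the same 81 members. Its TMM-scaled values were 206, 211, 231, 187 and 227 CPM in the aged untreated and 267, 264, 267, 243 and 288 CPM in the aged LPS libraries. The groups did not overlap, and the log2 fold change was 0.32 ± 0.07 (SE, n = 5 a group; edgeR adjusted p = 0.000565). With library sizes alone it was 0.16 and still passed (edgeR adjusted p = 0.039). The young response was of like size, at 0.30 (edgeR adjusted p = 0.000814). Rpl10, which completes the 60S subunit in the cytoplasm, rose in aged cells from 460.3 ± 33.4 to 542 ± 32.9 CPM (0.24, edgeR adjusted p = 0.00149). Rps9, the counterpart of a bacterial protein that affects decoding accuracy, rose from 546 ± 35.7 to 637 ± 36.2 CPM (0.22, edgeR adjusted p = 0.00216). Neither gene's groups overlapped.

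**Figure D4:**
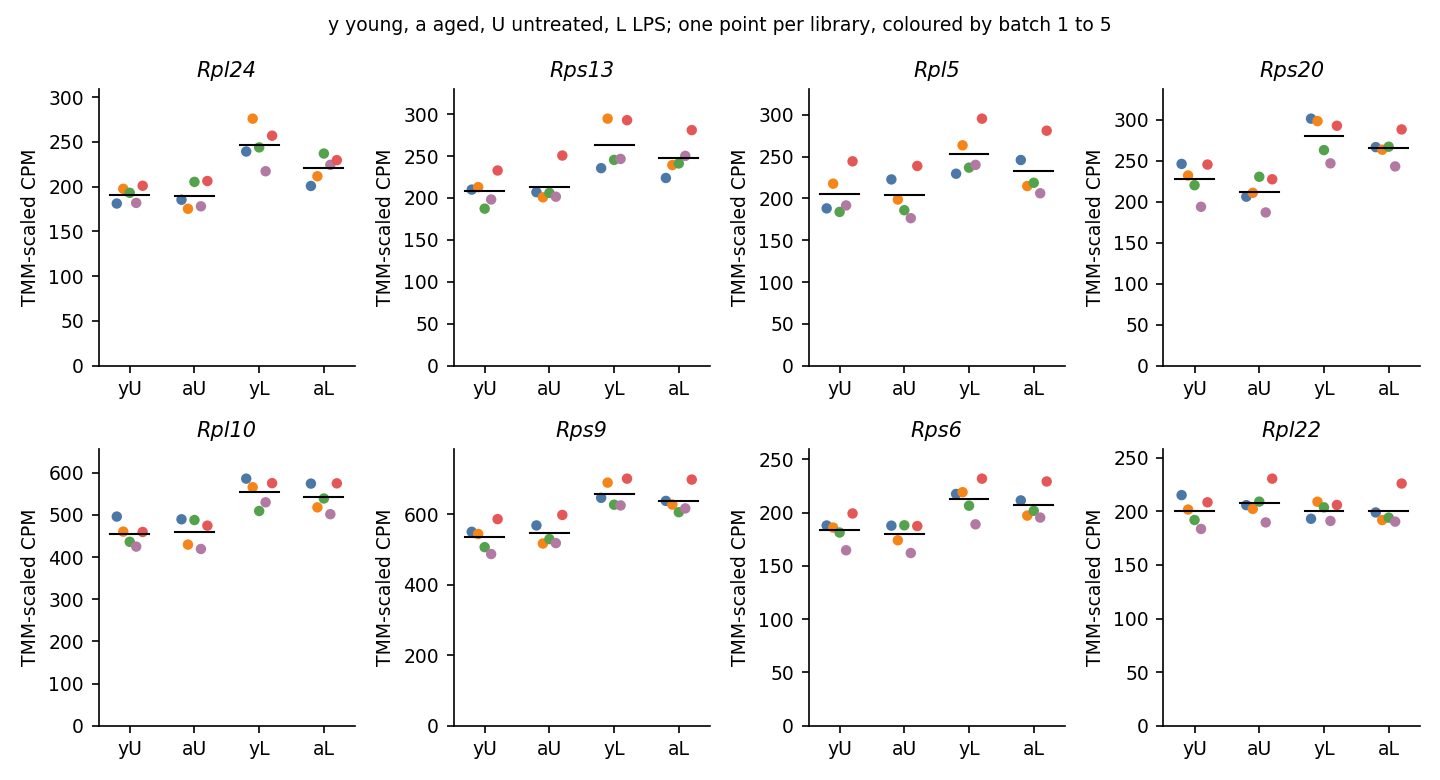
TMM-scaled CPM of 8 members in every library, with each vertical axis starting at 0; points are libraries coloured by batch, and lines are group means. The LPS means exceed the untreated ones for 7 of the genes at each age, whereas Rpl22 has group means of 200.2 to 208 CPM.

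Rps6, the 40S protein whose phosphorylation by S6 kinase is a common readout of mTORC1, followed the median member. It had 188, 186, 181, 165 and 199 CPM in young untreated and 218, 219, 206, 189 and 232 CPM in young LPS libraries. In aged cells it had 188, 174, 188, 162 and 187 CPM untreated and 211, 197, 202, 195 and 229 CPM with LPS. It rose by 0.21 in young (edgeR adjusted p = 0.0047) and 0.20 in aged cells (edgeR adjusted p = 0.00788), and the groups overlapped in young cells only. Scaled by library sizes alone, the values were -0.01 and 0.04. Between aged and young untreated cells the log2 fold change was -0.03 ± 0.06 (SE; edgeR adjusted p = 0.81), and phosphorylation is not measured by these libraries.

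Of the 10 listed members with a known role outside the ribosome, Rps6 and Rpl5 included, 8 rose with LPS in young and 5 in aged cells, and 10 and 8 passed with the batch as a block, whereas 0 of 10 passed at either age with library sizes alone. The shares of all genes higher were 31.2 and 27.5%, and 32.8 and 29.7% with the block. Rps19, whose loss of a copy causes Diamond-Blackfan anaemia, rose by 0.24 and 0.18, and Rpl23, another MDM2 binder, by 0.22 and 0.18 in young and aged cells. Rpl13a, which can leave the ribosome to silence inflammatory messengers in interferon-treated monocytes, rose by 0.16 and 0.15. Rpl11, Rpl26 and Rps7, which bind MDM2 or act on p53, rose in young cells by 0.20, 0.19 and 0.17, and in aged cells their values were 0.12, 0.14 and 0.15 without passing. Rpsa, which is also known as a laminin receptor, rose by 0.19 in aged cells and stood at 0.14 in young cells (edgeR adjusted p = 0.0509). Rps3, which takes part in DNA repair and NF-kappaB binding, stood at 0.11 and 0.10 and passed in young cells with the block alone (edgeR adjusted p = 0.149, and 0.0345 with the block). In the P stalk, Rplp0 rose by 0.23 and 0.21, Rplp1 rose by 0.19 in young cells and stood at 0.18 in aged cells, and Rplp2 stood at 0.13 in young and rose by 0.18 in aged cells. With the block all 3 passed at each age.

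Rpl22 was the member that LPS moved least in young cells, and its paralog Rpl22l1 was among those it raised most. Rpl22, an RNA-binding 60S protein (chr4:152325742-152334071, plus strand), had 215, 202, 192, 184 and 209 CPM in young untreated and 193, 209, 204, 191 and 206 CPM in young LPS libraries, with a log2 fold change of 0.00 ± 0.06 (SE). In aged cells it was -0.05 ± 0.06. Rpl22 was the member called lower with library sizes alone, by -0.22 in young (edgeR adjusted p = 0.00136) and -0.21 in aged cells (edgeR adjusted p = 0.00217). Rpl22l1 (chr3:28805436-28807424, plus strand), which can take the place of Rpl22 and is known to be repressed by it, had 43.6, 51.0, 51.7, 49.9 and 59.4 CPM in young untreated and 50.9, 64.5, 65.0, 67.3 and 80.5 CPM in young LPS libraries. Every batch was higher with LPS although the groups overlapped, and the log2 fold change was 0.36 ± 0.13 (edgeR adjusted p = 0.0152). In aged cells it rose from 44.8 ± 7.97 to 55.9 ± 8.76 CPM (0.32, edgeR adjusted p = 0.0381). Neither rise passed with library sizes alone (0.14 and 0.16).

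Ratios of a paralog to its namesake within a library are free of the scaling, and 20 such comparisons (5 pairs, 4 contrasts) were made after the values had been seen. Counts of Rpl22l1 per 100 of Rpl22 were 25.6 ± 3.22 without and 32.7 ± 4.77 with LPS in young cells, and 21.6 ± 3.25 and 27.8 ± 3.5 in aged cells (SD, n = 5 each; exact two-sided permutation p = 0.0317 in each, adjusted over the 20 comparisons 0.127), higher in 5 of 5 batches at each age. Rps27l, a p53 target related to Rps27, went in young cells from 31.7 ± 2.55 to 28.1 ± 1.11 per 100 counts of Rps27 (exact permutation p = 0.0159, adjusted 0.106), lower in 5 of 5 batches. In aged cells it went from 34.7 ± 2.98 to 31.8 ± 3.97 (exact permutation p = 0.262). Rpl39l against Rpl39 had the smallest p that 5 against 5 allows at each age (exact permutation p = 0.00794, adjusted 0.0794), and none of the 20 passed after adjustment. As genes, Rpl7l1, a paralog of Rpl7, rose with LPS in young cells by 0.23 (edgeR adjusted p = 0.000579) and stood at 0.10 in aged cells, while its group means were 29.7 to 32.1 counts per 100 of Rpl7. Rps27l stood at 0.08 and 0.06 and did not pass.

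Rpl39l (chr16:10170226-10174911, plus strand), a paralog known mainly from male germ cells, was nearly silent without LPS. It had 2, 0, 1, 1 and 0 counts in young untreated and 0, 0, 0, 0 and 1 counts in aged untreated libraries. With LPS it had 10, 17, 4, 10 and 19 counts in young and 7, 8, 4, 10 and 10 counts in aged libraries, so neither pair of groups overlapped. Scaled by the totals this was 15.6-fold higher in young cells (exact 95% interval 5.77 to 59.0) and 41.8-fold higher in aged cells (7.08 to 1694), intervals that cover counting error only. The gene was below the filter on low counts. In the fit without it, over 27197 genes, the log2 fold changes were 3.96 (edgeR adjusted p = 2.36e-07) and 4.79 (edgeR adjusted p = 2.25e-06). No 50-base stretch of its annotated transcript occurs exactly in that of another gene, and the placing of single reads was not tested. Its level stayed small: at most 1.67 counts per 100 of Rpl39. Rpl10l, another germ cell paralog, had 0 counts in all libraries (3 counts, the limit that a count of 0 allows, are 0.178 to 0.264 CPM). Rpl3l, a form of heart and skeletal muscle, averaged 0.839 CPM and passed in no comparison.

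**Figure D5:**
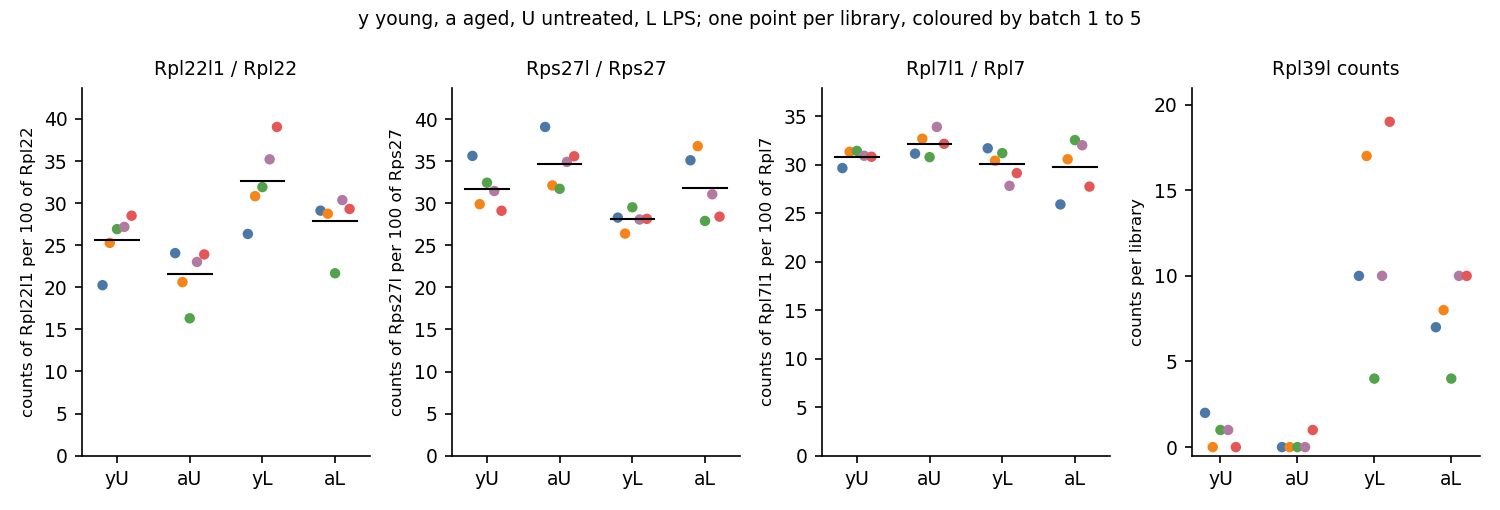
Counts of 3 paralog forms per 100 counts of their namesake, and the counts of Rpl39l, in every library; points are coloured by batch and lines are group means. Rpl22l1 against Rpl22 is higher with LPS in each batch, and Rpl39l has 4 to 19 counts with LPS against 0 to 2 without.

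Long-term culture moved no member past the test in untreated cells. 0 of 81 passed with edgeR, against 11.5% of all genes in either direction, and 0 with DESeq2. At an unadjusted edgeR p under 0.05 there was 1 member, against 3301 of 12799 genes. The members' median log2 fold change was -0.02 and that of all genes -0.01. Apart from Rpl3l (-0.75 ± 0.33 SE at under 1 CPM, edgeR adjusted p = 0.153), values ran from -0.19 for Rpl22l1 to 0.10 for Rpl7a. With the batch as a block 2 of 81 members passed, against 17.2% of all genes. They were Rpl7a, higher by 0.10 (edgeR adjusted p = 0.0245) and higher in 5 of 5 batches, and Rpl35a, lower by -0.14 (edgeR adjusted p = 0.0361) and lower in 5 of 5 batches. Rpl35a had 156, 143, 137, 129 and 160.4 CPM in young and 137, 121, 132, 117 and 151 CPM in aged untreated libraries, so the groups overlapped while each batch differed the same way. With the block and library sizes alone Rpl35a stood at -0.12 and lost the call (edgeR adjusted p = 0.0613), while Rpl7a kept it at 0.12 (edgeR adjusted p = 0.0132).

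Under LPS, 0 of 81 members differed between aged and young cells with edgeR, against 29.0% of all genes in either direction. At an unadjusted edgeR p under 0.05 there were 3 members, against 4939 of 12799 genes. DESeq2 called 2, Rpl21 and Rpl24, both lower in aged cells. The members' median was -0.06 and 71 of 81 values were negative, while the median of all genes was 0.01. With library sizes alone the members' median was 0.02 against 0.09 for all genes, so the sign of the members' shift turned with the scaling. Their distance from the median gene was -0.07 under each scaling, as a change of scaling moves all genes nearly alike. Under TMM that distance was -0.03 without batch 2 and -0.10 without batch 3. With the batch as a block 3 members were lower in aged cells (17.2% of all genes lower): Rpl35a at -0.18 (edgeR adjusted p = 0.00522), Rpl24 at -0.16 (edgeR adjusted p = 0.024) and Rpl21, at -0.12 (edgeR adjusted p = 0.0176). All 3 calls were lost with the block and library sizes alone (-0.09, -0.08 and -0.04), a fit in which 8 other members (9.88%) were higher and 0 lower in aged cells, against 28.4% of all genes higher and 11.9% lower.

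The response to LPS did not differ detectably between the ages for any member. The interaction term passed for 0 of 81 members with edgeR and with DESeq2, against 6.39% of all genes with edgeR. At an unadjusted edgeR p under 0.05 there were 0 members, against 2481 of 12799 genes. The members' median interaction was -0.04, the median SE was 0.10, and single values ran from -0.15 to 0.06. The sign turned with the scaling: 71 of 81 values were negative under TMM, and 60 of 81 were positive with library sizes alone, at a median of 0.02. With the batch as a block the members' median SE was 0.064, and 0 of 81 passed. At the SE of 0.10 without the block, an interaction of about 0.2 or less for a single member lies within the error. The limit is smaller with the block.

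Some ribosomal proteins have names that fall outside the rule, and 3 of them are given here. Fau, which encodes eS30 fused to a ubiquitin-like protein, rose with LPS by 0.26 and 0.22 in young and aged cells. Rack1, a scaffold on the 40S head, rose by 0.23 and 0.21, and neither gene passed with library sizes alone. Rpl36al stood at 0.12 at each age without passing, and passed with the batch as a block (edgeR adjusted p = 0.0204 and 0.0166).

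Of 14 other messengers known for a TOP start, 10 were higher and 0 lower with LPS at each age, against 31.2% of all genes higher in young and 27.5% in aged cells, with medians of 0.23 in young and 0.19 in aged cells. The nucleolar chaperone Npm1 rose by 0.50 and 0.34, and the poly(A)-binding protein Pabpc1 by 0.42 and 0.38. With library sizes alone both still passed (Npm1 at 0.28 and 0.18, Pabpc1 at 0.20 and 0.21). Under that scaling the list had 3 higher and 3 lower in young and 3 higher and 1 lower in aged cells. Its medians were 0.01 and 0.03. Of all genes 18.8% were then higher and 50.0% lower in young, and 17.0 and 42.8% in aged cells. In untreated cells 1 of 14 differed with age, Npm1, higher by 0.22 in aged cells (edgeR adjusted p = 0.0132), and 4 with the batch as a block, against 11.5 and 17.2% of all genes in either direction.

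Among 14 regulators of mTORC1, S6 kinase and TOP messengers, 2 rose and 3 fell with LPS at each age, and with library sizes alone 1 rose and 9 fell in young and 1 rose and 6 fell in aged cells. Of all genes 31.2% rose and 33.5% fell in young and 27.5% rose and 26.9% fell in aged cells, and with library sizes alone the shares were 18.8 and 50.0% in young and 17.0 and 42.8% in aged cells. Larp1, the repressor of TOP translation, rose by 0.53 in young and 0.33 in aged cells, and the mTORC1 activator Rheb by 0.24 and 0.19. Mknk2, a kinase of the cap-binding protein eIF4E, fell by 1.21 and 0.68, and Eif4ebp2, an inhibitor of the same protein, fell by 0.98 and 0.64 on the log2 scale. For these 2 genes the interaction passed, at 0.54 (edgeR adjusted p = 0.013) and 0.33 (edgeR adjusted p = 0.00615). Mtor itself stood at -0.15 and -0.10 and did not pass, and 0 of the 14 differed between aged and young untreated cells, against 11.5% of all genes.

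Of 11 listed chaperones and assembly factors, most carry single ribosomal proteins to the nucleolus or fit them into the particle. Among the 11, 7 rose with LPS in young and 4 in aged cells and none fell. The share of all genes higher was 31.2% in young and 27.5% in aged cells. Library sizes alone gave 3 of the 11 higher and 4 lower in young, and 2 higher and 4 lower in aged cells. With library sizes alone, 18.8% of all genes were higher and 50.0% lower in young, and 17.0 and 42.8% in aged cells. Rrs1, which loads the 5S particle with Rpl5 and Rpl11, rose by 0.75 and 0.62, and Ltv1, a 40S assembly factor, by 0.60 and 0.46. Without LPS, 4 of the 11 had higher levels in aged cells, against 3.71% of all genes. Bccip, a partner of Rpl23, was higher by 0.25 (edgeR adjusted p = 0.00102) and Pdcd2, a partner of Rps2, by 0.22 (edgeR adjusted p = 0.0348). The response of Bccip to LPS was smaller in aged cells by 0.21 on the log2 scale in the interaction (edgeR adjusted p = 0.0463), and the call was lost with library sizes alone (edgeR adjusted p = 0.137).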

How the data were processed

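The authors deposited whole-number read counts per gene, not normalized. Reads were checked with FastQC 0.11.8, aligned with STAR 2.6.1d and counted with featureCounts 1.5.1, per the submitters' processing notes. The strand and multiple-match settings are not given in the sources used here, and the authors tested with DESeq2. Names, positions and transcripts came from GENCODE M21 (GRCm38), which matched 55227 of 55487 rows, and start sites from RefSeq (GRCm38.p6).

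All 20 libraries were fitted by group with edgeR 4.0.16 (filterByExpr, TMM, quasi-likelihood, Benjamini-Hochberg at 0.05 over 12799 genes) in R 4.3.3. Ratios and intervals were computed in Python 3.11.15. The authors' tool, DESeq2 1.42.0, served as an alternative, beside other scalings, filters, thresholds, pseudogenes added to their parents, a batch block, and each batch left out. On simulated counts of the untreated age comparison, edgeR recovered 200 of 200 genes changed 2-fold, with 6 false calls in 12622 genes. The simulated counts had no differences between batches, and their changes were far larger than those of nearly all members. They therefore do not show how small a change of a member could be found.

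The labels number the batches, so equal numbers pair libraries. Deviations of paired libraries from their group means correlated on average at 0.146 over 30 pairs of groups and batches (0.268 within an age), and over the members alone at 0.445 (0.652 within an age). No 2 libraries of a group agreed within sampling noise (chi-square per degree of freedom 2.35 to 25.3). Totals of 11371508 to 16829292 counts set the counting precision, and intervals cover counting error only.

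Members and lists were chosen with earlier results of these data known. Members named were those of the lists of P stalk proteins, paralogs and roles outside the ribosome, with the 4 most raised and lowered past the test in each comparison at 5 CPM or more and the 5 highest and lowest per length. For other lists the 2 most raised and lowered past the test were named. Results for some genes are not reported here.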

Additional observations from a re-analysis of the deposited data

Results flagged for a closer look

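In groups of 5 libraries, single libraries stood far from the rest in 3 of 92 groups of values checked by Dixon's criterion, which chance meets in about 1 of 20 groups. All 3 were the highest value of their group and all were in batch 5. Rplp1 had 820.9 TMM-scaled CPM in the aged LPS library of batch 5, against 650.1 to 686 in the other 4. Rpl11 had 458 CPM in the same library, against 345 to 374. Rps13 had 251 CPM in the aged untreated library of batch 5, against 201 to 207. Batch 5 also had the highest share of counts in the members in every group, and its part in these values was not tested. Without batch 5, LPS raised 58 members in young and 39 in aged cells (71.6 and 48.1%, against 29.1 and 24.6% of all genes).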

How the results depend on the processing

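The rise with LPS rests on the scaling. Of 81 members, 56 were called in young and 41 in aged cells, and with library sizes alone 2 and 2. At an adjusted p below 0.01 the counts were 36 and 14 (44.4 and 17.3%, against 26.8 and 22.7% of all genes higher), and with a log2 fold change of at least 0.5 they were 0 and 0 (35.1 and 25.3% of all genes either way). Without the filter on low counts 25 of 82 (30.5%) passed in aged cells, against 12.3% of all genes. Leaving out 1 batch at a time gave 39 to 58 in young (28.3 to 29.5% of all genes) and 18 to 39 in aged cells (20, 18 and 26 without batches 2, 3 and 4), with 82 members tested without batches 1 to 3. With the batch as a replicate block the counts were 75 in young cells, 63 in aged cells, 2 between ages untreated and 3 between ages under LPS. With that block and library sizes alone, a setting chosen after seeing the data, they were 7 (2 higher, 5 lower), 2 (1 and 1), 2 (2 and 0) and 8 (8 and 0), against 19.7% of all genes higher and 51.8% lower, 17.9 and 45.2%, 7.95 and 9.62%, and 28.4 and 11.9%, where the 3 calls with the block under TMM were all lower. Between ages under LPS, DESeq2 size factors and the DESeq2 Wald test gave 2 each, all lower, against 2049 and 2105 of 12799 genes lower. Library sizes alone gave 1 higher, against 3167 of 12799 genes higher. Leaving out batch 4 gave 1 lower, against 1659 of 12784 genes lower, and leaving out any other batch gave 0. The interaction stayed at 0 under all these settings, and the members' median distance from all genes and their shares moved by less than the spread. Between scalings that distance is nearly fixed, since a change of scaling moves all genes nearly alike.

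With library sizes alone, and then with the block as well, the young LPS change turned to -0.0332 and -0.0332 for Rplp1, -0.0200 and -0.0147 for Rpl11, -0.0266 and -0.0225 for Rpl26, -0.0514 and -0.0502 for Rps7, -0.0614 and -0.0603 for Rpl13a, and -0.00989 and -0.00971 for Rps6. The aged change of Rpl13a turned to -0.0113 and -0.00979. Rps3 in young cells had -0.107 with block and library sizes. Of the values of single genes under the alternatives, 1497 were labelled as the same, 96 lost the call, 19 gained it and 15 turned. Not every turn of sign is among the 15. The median interaction of the 10 members with outside roles went from -0.03 to 0.03 with library sizes alone, and no interaction is counted among the 15. The cause of these changes was not tested. Depth limits Rpl3l, Rpl39l and Rpl10l, and shared sequence limits the counts of most others.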

Other observations

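Under LPS, Mknk2 and Eif4ebp2 were higher in aged than in young cells, by 0.41 (edgeR adjusted p = 0.00189) and 0.24 (edgeR adjusted p = 0.00104). Larp1 was lower by -0.14 (edgeR adjusted p = 0.0219), a call that was lost with library sizes alone (edgeR adjusted p = 0.34). Of the 11 chaperones and assembly factors 1 was higher and 1 lower, against 14.0 and 15.0% of all genes. The higher one was Pdcd2, by 0.19 (edgeR adjusted p = 0.045). All 8 LPS response genes were lower in aged than in young LPS libraries, with a median log2 fold change of -1.67 (15.0% of all genes lower). Without LPS their median was already -2.17, with 3 of 8 called lower (7.81% of all genes). Their interaction passed for 0 of 8.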
